A study of Arabidopsis thaliana and Zea mays subsp. mays with 14 samples.

Results

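The SAUR (small auxin up-regulated RNA) genes of Arabidopsis thaliana described here are 36 loci of the 79 protein-coding genes annotated as SAUR, out of 27444 protein-coding genes in all. Tandem clusters held 33 of them: 8 genes on chromosome 1 (SAUR61 to SAUR68), 3 on chromosome 2 (SAUR7, SAUR6, SAUR12), 5 on chromosome 3 (SAUR26 to SAUR29 and SAUR73), 7 on chromosome 4 from SAUR49 to SAUR5, 4 on chromosome 4 from SAUR13 to SAUR16, and 6 on chromosome 5 (SAUR19 to SAUR24). SAUR71, SAUR10 and SAUR9 stood alone. The loci were chosen with their open chromatin in root and seedling libraries already known. All comparisons below therefore describe the chosen genes. Counts of limma calls, and of unadjusted limma p under 0.05, are given beside the share over all tested genes, with no p-value per gene. These counts are not evidence of a difference. This holds for the seedling preparations too, since each is set against the sorted seedling libraries that were in view when the genes were chosen.

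Chromatin accessibility was profiled by ATAC-seq, in which a transposase cuts and tags open DNA, and the study asked how nuclei sorting serves to find regulatory regions in plants. Of 14 samples, 10 libraries with a deposited list of called regions form 5 groups of 2. Root libraries came from 50000 nuclei of wild-type Col-0 roots. The 500-nuclei libraries came from 500 nuclei of wild-type Col-0 seedlings, and the crude libraries from 50000 wild-type Col-0 seedling nuclei. The H2AX-GFP libraries came from 50000 nuclei of 35S:H2AX-GFP seedlings in Col-0, in which the broadly active 35S promoter drives a green fluorescent histone H2AX. The sorted seedling libraries came from 50000 nuclei of wild-type Col-0 seedlings. All plants were 7 days old, grown on sugar-containing plates under 16 hours of light with no treatment, so no group received auxin. Seedlings include their roots. The labels give the same sorting protocol to every sample, the crude nuclei included, and leave unsaid whether both libraries of a group were made from different plants, so the spread that limma's calls rest on may be technical.

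SAUR genes encode small proteins, many of which are switched on within minutes of auxin treatment. Proteins of the SAUR19 and SAUR63 subfamilies promote cell expansion: they inhibit PP2C.D phosphatases, which leaves plasma membrane proton pumps active, acidifies the cell wall and lets it loosen. In shoots they are known for hypocotyl and organ elongation, and their transcription is driven by auxin response factors (ARF), phytochrome-interacting factors (PIF) and the brassinosteroid factor BZR1.

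The value given per gene is the number of covered bases, that is, bases of called regions within a window that runs from 1000 bp outside to 200 bp inside both gene ends, 2400 bases at most. The 10 lists held 22138 to 29309 regions, which covered 13.78 to 24.61 Mb. Root libraries covered 21.56 and 15.76 Mb, against 22.39 and 21.02 Mb in sorted seedling libraries. Over all 23893 genes covered in at least 2 libraries, the mean was 745.2 ± 150.7 covered bases in root libraries, against 873.5 ± 56.6 in sorted seedling libraries (SD, n = 2 each). The lists carry no read counts, so the depth behind a value is unknown and a value of 0 means only that no region was called there. The lists of marker and pathway genes here and below were also chosen with earlier results of these data known, so their counts are description. Of 7 shoot markers 6 were called lower in root than in sorted seedling libraries (0.578% of all tested genes): RBCS2B, LHCB2.2, PSAL, GLK1, KCS6 and FDH. RBCS2B, a Rubisco small subunit gene, had 0 and 0 covered bases in root libraries, against 2122 and 2323 in sorted seedling libraries, while RBCS1A, the exception, had 2235 and 1270 in root libraries, against 2400 and 2400. Of 7 root markers tested, 5 had a higher and 2 (SCR and SHR) a lower mean in root than in sorted seedling libraries, and 1 was called higher (0.105% of tested genes). It was the phosphate exporter gene PHO1, at 595 and 450 covered bases, against 0 and 0 in sorted seedling libraries. Against the 4 seedling groups 2 of the 7 were called higher (0.603% of tested genes), PHO1 and the potassium channel gene AKT1, which had 1648 and 1609 covered bases in root libraries, against 579 to 1302 in seedling libraries. The iron transporter gene IRT1 had the largest difference of the list without a call, with 1914 and 955 in root libraries, against 0 to 436 in seedling libraries. The stem cell niche gene PLT1 had no covered base in any library. Over the lists, the shoot markers averaged 394.4 and 288.0 covered bases in root libraries, against 1353.0 to 1871.1 in seedling libraries, and the root markers 800.2 and 508.4, against 255.0 to 621.1. The part of such tissue differences in the SAUR values was not tested.

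Across the 36 SAUR genes, root libraries averaged 284.4 and 195.0 covered bases per gene. Sorted seedling libraries averaged 1312.9 and 1491.8, and the 8 seedling libraries ranged from 981.4 to 1543.4. Both root libraries thus lay far below every seedling library, although the root libraries lay within the seedling range over all tested genes. All 36 genes had a lower mean in root than in sorted seedling libraries, as did 69.5% of all tested genes. Under alternatives, SAUR2 and SAUR3 were not lower after quantile normalization, nor was SAUR5 with the gene span alone. SAUR4 was not lower without root replicate 2, and neither SAUR4 nor SAUR5 without sorted seedling replicate 1. The median difference was -1188.5 covered bases for the SAUR genes, against -83.0 over all tested genes. In bulk nuclei, fewer cells of a type and less open chromatin per cell cannot be told apart.

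For 32 of the 36 genes both root libraries lay below both sorted seedling libraries, a pattern that 29.5% of all tested genes share. For 30 of 36 both root libraries lay below all 8 seedling libraries, as for 5.72% of tested genes. A gene was called lower or higher where limma, fitted over all tested genes, gave a Benjamini-Hochberg adjusted p under 0.05. By this rule 10 SAUR genes were called lower in root than in sorted seedling libraries (0.578% of all tested genes were called lower). They were SAUR62, SAUR63, SAUR64, SAUR65, SAUR66 and SAUR68 on chromosome 1, SAUR12 on chromosome 2, SAUR27 on chromosome 3, SAUR15 on chromosome 4 and SAUR24 on chromosome 5. Against the mean of the 4 seedling groups 19 were called lower (1.41% of tested genes), and 35 of 36 had a lower root mean (55.9% of tested genes). None was called higher in root libraries, where 0.105% of tested genes were called higher than in sorted seedling libraries. Called lower against sorted seedlings were 10 of the 36 and 138 of all tested genes. With 500 bp windows these counts were 18 and 256, and without limma's trend and robust options 16 and 232. After division by the covered length of each library they were 0 and 22, and with only these 2 groups in the fit 0 and 0. With the gene span alone they were 1 and 67, and with 2000 bp windows 5 and 41. Against the 4 seedling groups, 19 SAUR genes and 337 of all genes became 4 and 233 with the gene span alone. The 2 comparisons share both root and both sorted seedling libraries. Calls against sorted seedlings were fewer or lost, at SAUR genes and over all tested genes alike, without a root, sorted seedling, 500-nuclei or H2AX-GFP library. Such a fit leaves 1 library in a group, so the mean difference over the 36 genes is given instead. In the main fit it was -1162.6 covered bases. It was -1207.3 without root replicate 1 and -1117.9 without root replicate 2. Without sorted seedling replicates 1 and 2 it was -1252.1 and -1073.2. Against the 4 seedling groups, calls of SAUR genes and over all tested genes were likewise fewer or lost without a root or 500-nuclei library. The mean difference over the 36 was -1031.1 covered bases in the main fit. It was -1075.8 and -986.4 without root replicates 1 and 2, and -1038.1 and -1024.1 without 500-nuclei replicates 1 and 2.

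For 18 of the 36 genes neither root library held a covered base (8.57% of tested genes), and 17 of those 18 were covered in all 8 seedling libraries (1.46% of tested genes). SAUR2, the remaining gene, was covered in 3 seedling libraries. Another 16 of the 36 were covered in both root libraries (81.9% of tested genes). Taking the gene span alone, 26 SAUR genes were covered in all 8 seedling libraries (54.2% of tested genes), 27 had no covered base in either root library (22.8% of tested genes), and 19 had some of the span covered in all 8 seedling libraries and none in either root library (1.44% of tested genes). The plot of every gene in every library places all 6 genes whose root and seedling values overlap in the SAUR49 cluster. Neighbours are not independent, since the windows of 25 of the 36 genes overlap that of another.

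**Figure D1:**
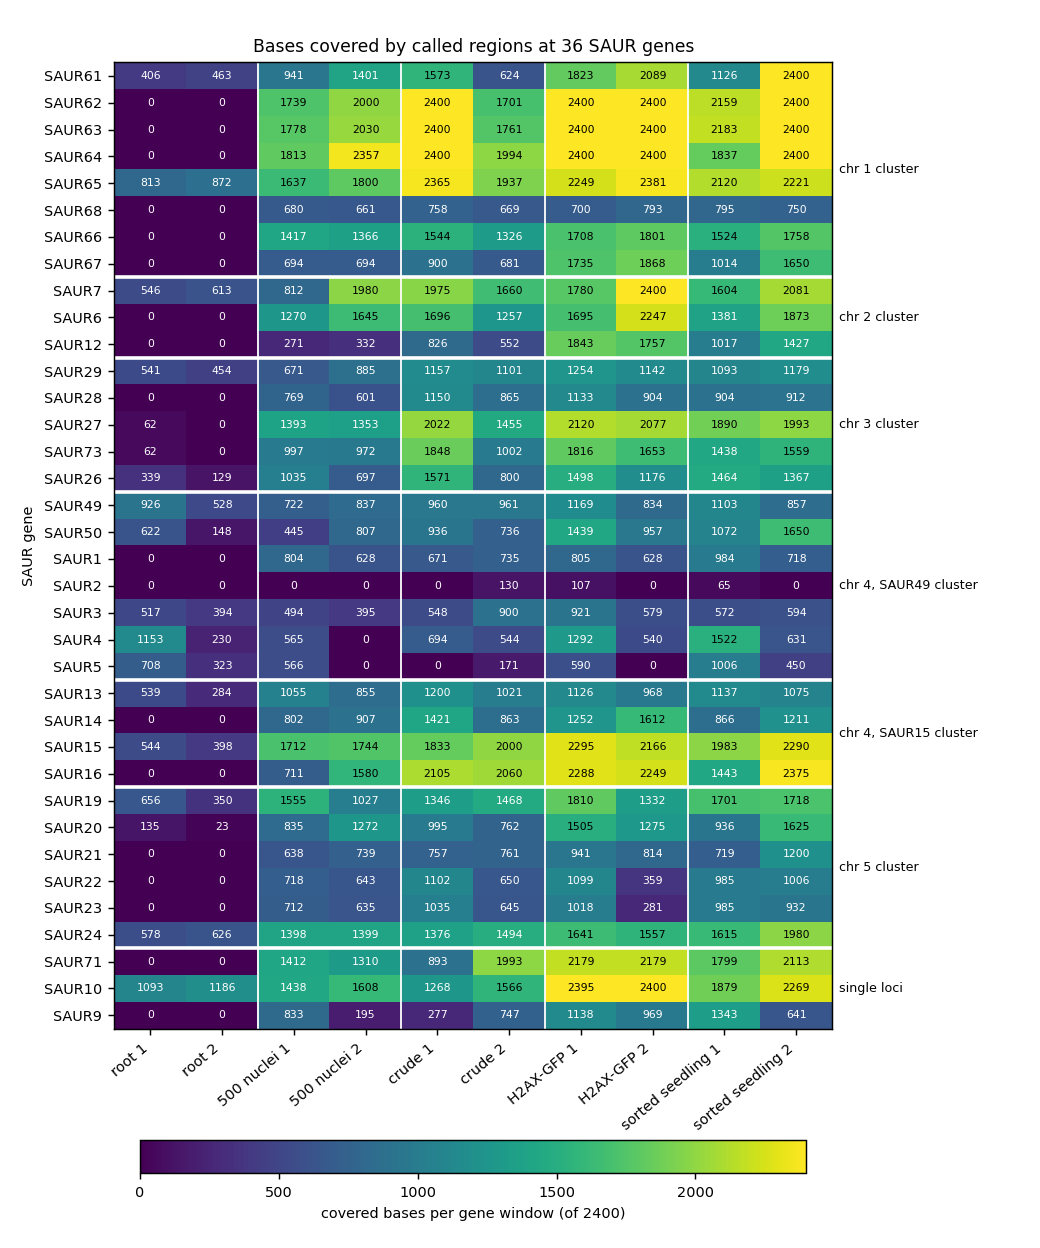
Covered bases at each of the 36 SAUR genes (rows, by genomic cluster) in each of the 10 libraries (columns), on a colour scale from 0 to 2400 covered bases. Of the 36 rows, 18 read 0 in both root libraries. Rows in which root and seedling values overlap all belong to the SAUR49 cluster, where SAUR1 is the row without overlap.

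The chromosome 1 cluster held the SAUR63 subfamily, which promotes hypocotyl and stamen filament elongation. Its 8 genes spanned 21.9 kb, in a block of 5 (SAUR61 to SAUR65) and a block of 3 (SAUR68, SAUR66, SAUR67). SAUR65 (AT1G29460) had the cluster's highest mean over the 10 libraries, with 813 and 872 covered bases in root libraries, 1637 and 1800 from 500 nuclei, 2365 and 1937 from crude nuclei, 2249 and 2381 from H2AX-GFP nuclei, and 2120 and 2221 from sorted nuclei. The root libraries were the lowest of the 10, and the root minus sorted seedling difference was -1328.0 ± 183.2 covered bases (SE).

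SAUR68 (AT1G29490), with the lowest mean of the cluster, had 0 and 0 covered bases in root libraries, 680 and 661 from 500 nuclei, 758 and 669 from crude nuclei, 700 and 793 from H2AX-GFP nuclei, and 795 and 750 from sorted seedling nuclei. The 8 seedling values kept within a narrow range, and none of the gene's own span was covered in any library, so its covered bases lay beside the gene. SAUR62, SAUR63, SAUR64, SAUR66 and SAUR67 likewise had no covered base in root libraries. Their means over the 8 seedling libraries were 2149.9 ± 303.1 for SAUR62, 2169.0 ± 280.9 for SAUR63, 2200.1 ± 269.6 for SAUR64, 1555.5 ± 182.6 for SAUR66 and 1154.5 ± 510.5 for SAUR67 (SD, n = 8). SAUR61, at the left end, had 406 and 463 covered bases in root libraries, against 624 to 2400 in seedling libraries.

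The called regions of the cluster, joined over libraries where they touch, formed 2 regions (coordinates here and below are TAIR10, per the submitters' processing notes). The region chr1:10299767-10309227, 9461 bp wide, lies on SAUR61 to SAUR65 and was the widest at any of the 36 genes. In root libraries 1735 and 1860 of its bases were covered, at its left and right ends, against 6644 and 9221 in sorted seedling libraries and 5416 or more in every seedling library. The region chr1:10320608-10323707, 3100 bp wide, lies on SAUR66 and SAUR67 and in the window of SAUR68. It held no covered base in root libraries, against 1442 to 3098 in seedling libraries. The cluster's longest called stretch in a single library was 922 and 988 bp in roots, against 1282 to 9221 bp in seedling libraries. In sorted seedling replicates 1 and 2 it was 2443 and 9221 bp, which ranked 833 and 5 by width within each library. In crude replicates 1 and 2 it was 6429 and 1358 bp, which ranked 2 and 2753. The score that the authors gave each region put the cluster's best region in the top 15.6% and 10.1% of the root libraries, against the top 0.479% to 4.79% of a seedling library.

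Non-SAUR genes inside this cluster did not all follow it. AT1G29435, which lies around SAUR63, had 0 and 0 covered bases in root libraries, against 1685 to 2400 in seedling libraries. AT1G29470, between the blocks, had 806 and 706 covered bases in root libraries, against 668 to 1039 in seedling libraries, so root and seedling values overlapped there.

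**Figure D2:**
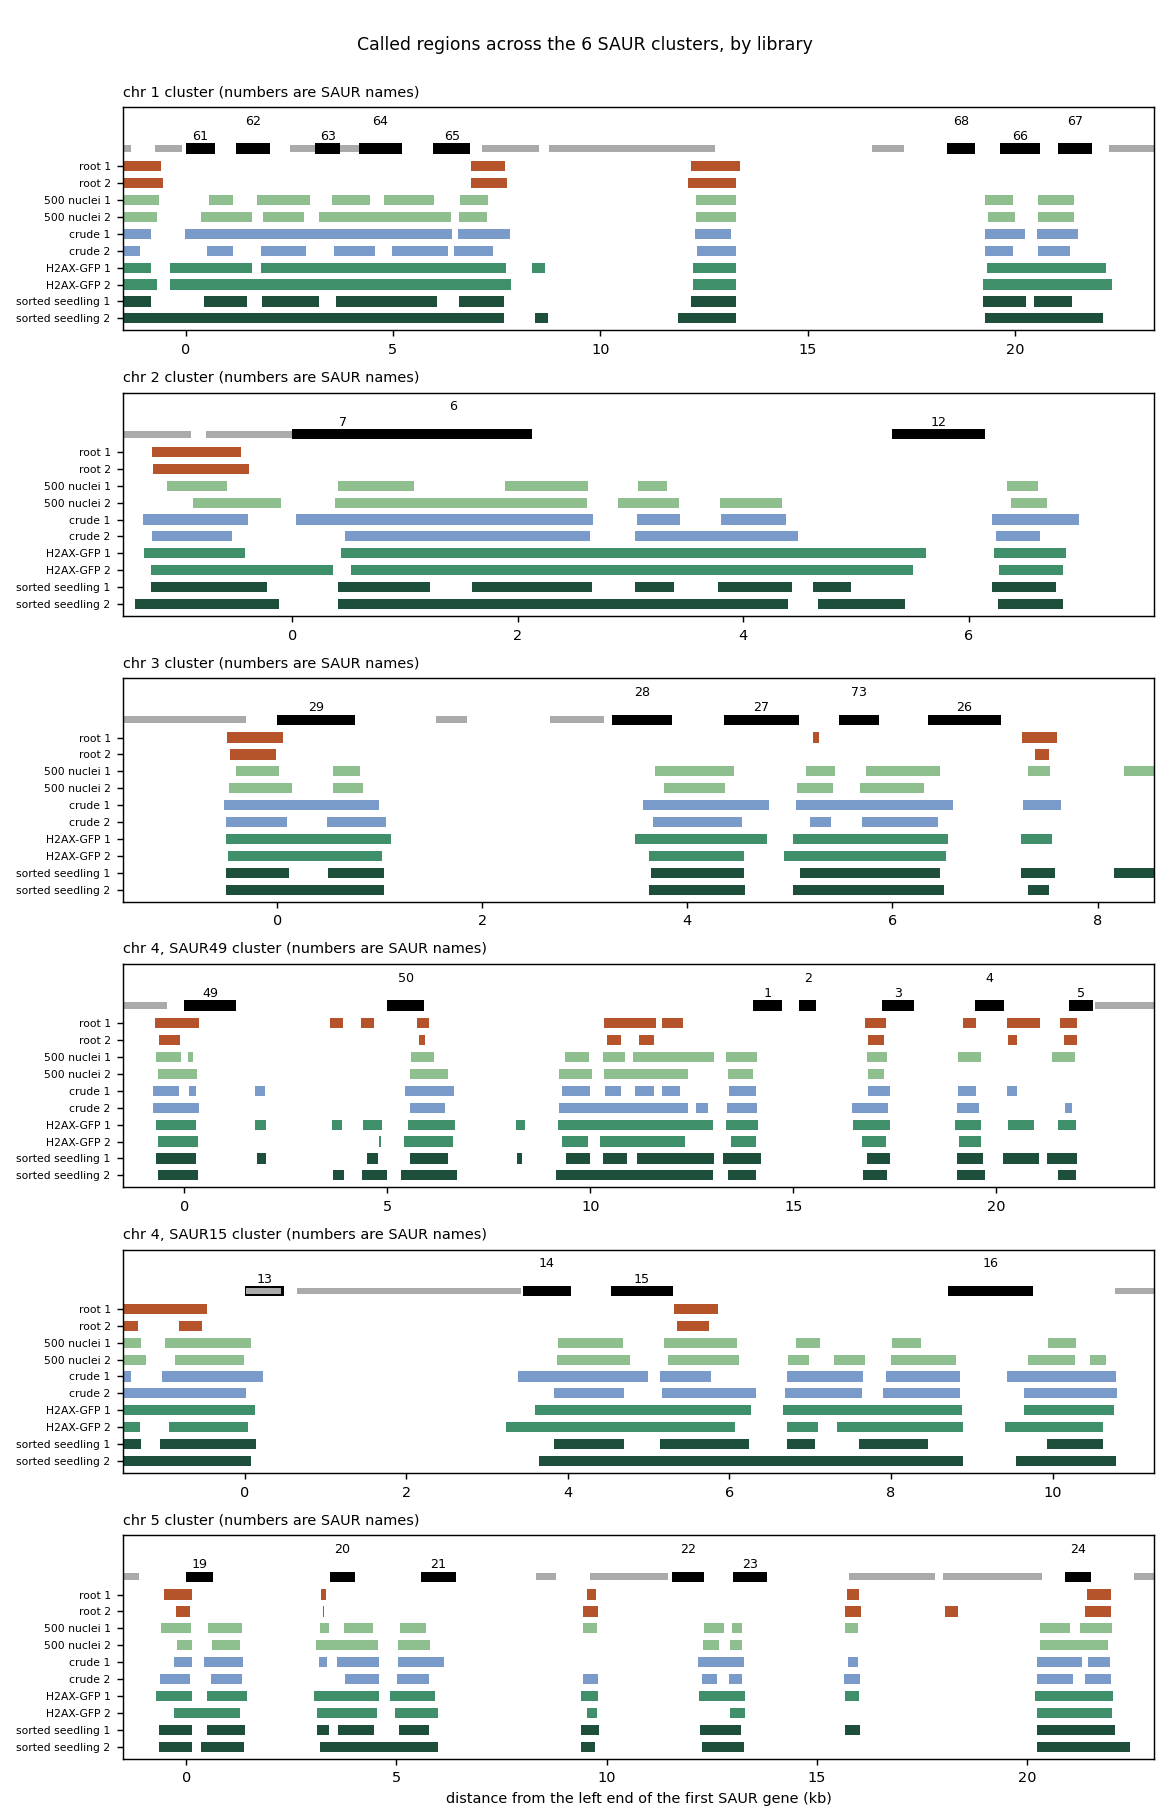
Called regions (coloured bars) in each of the 10 libraries along the 6 tandem clusters, with SAUR genes as numbered black boxes, other genes as grey boxes and the distance from the left end of the cluster's leftmost SAUR gene in kb on the horizontal axis. Bars over SAUR61 to SAUR65 and over SAUR66 and SAUR67 appear in all 8 seedling libraries, where root bars are limited to the edges of the block and to a region near AT1G29470, while the SAUR49 cluster shows root bars along its length.

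On chromosome 2, SAUR7 (AT2G21200) had 546 and 613 covered bases in root libraries, 812 and 1980 from 500 nuclei, 1975 and 1660 from crude nuclei, 1780 and 2400 from H2AX-GFP nuclei, and 1604 and 2081 from sorted seedling nuclei. All 8 seedling values were above both root values, the nearest being 500-nuclei replicate 1. SAUR12 (AT2G21220) had 0 and 0 covered bases in root libraries, 271 and 332 from 500 nuclei, 826 and 552 from crude nuclei, 1843 and 1757 from H2AX-GFP nuclei, and 1017 and 1427 from sorted seedling nuclei. Its seedling values spread widely, with the 500-nuclei libraries lowest and the H2AX-GFP libraries highest. SAUR6, between them, had no covered base in root libraries, against 1257 to 2247 in seedling libraries.

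The cluster's regions formed chr2:9082510-9089525, 7016 bp wide and in the windows of all 3 genes, and chr2:9090112-9090882, 771 bp wide and beside SAUR12. The wide region had 788 and 849 covered bases in root libraries, all to the left of SAUR7, against 4240 and 6032 in sorted seedling libraries. The narrow region had none in root libraries, against 271 to 768 in seedling libraries. Of the cluster span with 1000 bp on each side, 6.70% and 7.52% was covered in root libraries, against 28.9% to 84.99% in seedling libraries. The seedling mean of 61.9% was the highest of the 6 tandem clusters.

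The chromosome 3 cluster held the SAUR26 subfamily, which is known for growth responses to temperature. SAUR27 (AT3G03840) had 62 and 0 covered bases in root libraries, 1393 and 1353 from 500 nuclei, 2022 and 1455 from crude nuclei, 2120 and 2077 from H2AX-GFP nuclei, and 1890 and 1993 from sorted seedling nuclei. Even the lowest seedling value, 1353 covered bases, was far above both root values. SAUR28 (AT3G03830) had 0 and 0 covered bases in root libraries, 769 and 601 from 500 nuclei, 1150 and 865 from crude nuclei, 1133 and 904 from H2AX-GFP nuclei, and 904 and 912 from sorted seedling nuclei. Root and seedling values did not overlap for any of the 5 genes.

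Both root libraries kept a called region at the outer edge of SAUR29, where they had 541 and 454 covered bases against 671 to 1254 in seedling libraries. The region chr3:980207-981512, 1306 bp wide, lies on SAUR28 and SAUR27 and had no covered base in root libraries, against 601 to 1289 in seedling libraries. The adjoining region chr3:981655-983300 lies on SAUR73 and in the windows of its neighbours SAUR27 and SAUR26. It had 62 and 0 covered bases in root libraries, against 948 to 1578 in seedling libraries. At the far end, chr3:983964-984354 was called in both root libraries and in 5 of 8 seedling libraries.

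The SAUR49 cluster on chromosome 4 differed in its values from the other clusters. It spans 22.4 kb and holds SAUR49 and SAUR50, of which SAUR50 is light-induced in cotyledons, and SAUR1 to SAUR5. SAUR49 (AT4G34750), with the cluster's highest mean over the 10 libraries, had 926 and 528 covered bases in root libraries, 722 and 837 from 500 nuclei, 960 and 961 from crude nuclei, 1169 and 834 from H2AX-GFP nuclei, and 1103 and 857 from sorted seedling nuclei. Root replicate 1 lay inside the seedling range and root replicate 2 below it. SAUR2 (AT4G34780) had 0 and 0 covered bases in root libraries, 0 and 0 from 500 nuclei, 0 and 130 from crude nuclei, 107 and 0 from H2AX-GFP nuclei, and 65 and 0 from sorted seedling nuclei. Next to no region was called at this gene in any tissue.

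SAUR1 was the member of this cluster whose root values lay below all 8 seedling values, at 0 and 0 covered bases in root libraries against 628 to 984. The root and seedling values of SAUR49, SAUR50, SAUR2, SAUR3, SAUR4 and SAUR5 overlapped. SAUR4 had 1153 and 230 covered bases in root libraries, against 0 to 1522 in seedling libraries. SAUR5 had 708 and 323 covered bases in root libraries, against 0 to 1006 in seedling libraries, and its mean in root libraries was above the mean of the 4 seedling groups by 167.6 ± 232.1 covered bases (SE), a difference smaller than its error. For SAUR4 the root mean was above the sorted seedling mean without root replicate 2 and without sorted seedling replicate 1, and for SAUR5 without sorted seedling replicate 1. Over the cluster, root libraries averaged 560.9 and 231.9 covered bases per gene, against 381.0 to 903.4 in seedling libraries, so the root libraries lay at either side of the lowest seedling value.

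Of 10 joined regions in this cluster, 4 were called in all 10 libraries. The region chr4:16590435-16591385, 951 bp wide and reaching SAUR1, was called in all 8 seedling libraries, with 628 to 951 covered bases, and in no root library. To its left, chr4:16586329-16590218 had 1786 and 729 covered bases in root libraries, against 1997 to 3876 in seedling libraries. Between SAUR4 and SAUR5, chr4:16597347-16598251 had 820 and 230 covered bases in root libraries and was called in 3 of 8 seedling libraries.

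The SAUR15 cluster, also on chromosome 4, contains SAUR15 (long known as SAUR-AC1, an early auxin-responsive gene) and SAUR16, which is light-induced in cotyledons. SAUR15 (AT4G38850) had 544 and 398 covered bases in root libraries, 1712 and 1744 from 500 nuclei, 1833 and 2000 from crude nuclei, 2295 and 2166 from H2AX-GFP nuclei, and 1983 and 2290 from sorted seedling nuclei. Root values were the lowest, with a root minus sorted seedling difference of -1665.5 ± 170.4 covered bases (SE). SAUR14 (AT4G38840) had 0 and 0 covered bases in root libraries, 802 and 907 from 500 nuclei, 1421 and 863 from crude nuclei, 1252 and 1612 from H2AX-GFP nuclei, and 866 and 1211 from sorted seedling nuclei. SAUR16 had no covered base in root libraries, against 711 to 2375 in seedling libraries. No root value of the 4 genes reached a seedling value.

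The region chr4:18124766-18130416, 5651 bp wide, lies on SAUR14 and SAUR15 and reaches SAUR16. It had 544 and 398 covered bases in root libraries, in a stretch next to SAUR15, against 2380 to 5245 in seedling libraries. The region chr4:18130932-18132319 lies in the window of SAUR16 and had none in root libraries, against 347 to 1355 in seedling libraries. The neighbour CRK26, a receptor-like kinase gene between SAUR13 and SAUR14, also had 0 and 0 covered bases in root libraries, against 899 to 1605 in seedling libraries. Of its own span 0.93% was covered on average in seedling libraries, so its covered bases lay mostly beside the gene.

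The chromosome 5 cluster is the SAUR19 subfamily, the members through which inhibition of PP2C.D phosphatases was worked out. SAUR24 (AT5G18080) had 578 and 626 covered bases in root libraries, 1398 and 1399 from 500 nuclei, 1376 and 1494 from crude nuclei, 1641 and 1557 from H2AX-GFP nuclei, and 1615 and 1980 from sorted seedling nuclei. SAUR23 (AT5G18060) had 0 and 0 covered bases in root libraries, 712 and 635 from 500 nuclei, 1035 and 645 from crude nuclei, 1018 and 281 from H2AX-GFP nuclei, and 985 and 932 from sorted seedling nuclei. H2AX-GFP replicate 2 was the lowest seedling library at SAUR23 and also at SAUR22, where it had 359 covered bases. For all 6 genes both root libraries lay below all 8 seedling libraries. SAUR19 and SAUR20 were covered in both root libraries, SAUR19 with 656 and 350 bases and SAUR20 with 135 and 23.

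The region chr5:5974945-5976060, 1116 bp wide and reaching SAUR22 and SAUR23, had no covered base in root libraries, against 359 to 1102 in seedling libraries. The region chr5:5965819-5968895, 3077 bp wide and over SAUR20 and SAUR21, had 135 and 23 covered bases in root libraries, against 1533 to 2813 in seedling libraries. Within the same stretch of chromosome, AT5G18065 had 260 and 585 covered bases in root libraries, against 0 to 313 in seedling libraries. DRT101, a neighbour of SAUR24, had 0 and 139 in root libraries, against 786 to 1174 in seedling libraries. Of its own span 4.39% was covered on average in seedling libraries. The stretch chr5:5983094-5983789, covered in all 8 seedling libraries and in neither root library, overlaps both DRT101 and SAUR24.

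The 3 separate loci also had their lowest values in roots. SAUR71 (AT1G56150) had 0 and 0 covered bases in root libraries, 1412 and 1310 from 500 nuclei, 893 and 1993 from crude nuclei, 2179 and 2179 from H2AX-GFP nuclei, and 1799 and 2113 from sorted seedling nuclei. SAUR10 (AT2G18010), which responds to light and brassinosteroid, had 1093 and 1186 covered bases in root libraries, 1438 and 1608 from 500 nuclei, 1268 and 1566 from crude nuclei, 2395 and 2400 from H2AX-GFP nuclei, and 1879 and 2269 from sorted seedling nuclei. SAUR9 (AT4G36110), whose protein binds PP2C.D phosphatases, had 0 and 0 covered bases in root libraries, 833 and 195 from 500 nuclei, 277 and 747 from crude nuclei, 1138 and 969 from H2AX-GFP nuclei, and 1343 and 641 from sorted seedling nuclei. SAUR10 had the highest root mean of the 36 genes, 1139.5 covered bases, and the spread of SAUR9 within each wild-type seedling group was wide.

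At SAUR71 the joined regions chr1:21015933-21018822 and chr1:21018979-21019352 were each called in all 8 seedling libraries and in no root library. At SAUR9 the same held for chr4:17088929-17090077, while chr4:17091222-17091476 was called in 1 seedling library alone. SAUR10 lay in the window reach of chr2:7830397-7838597, 8201 bp wide, with 3425 and 3652 covered bases in root libraries, against 4395 to 7869 in seedling libraries.

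**Figure D3:**
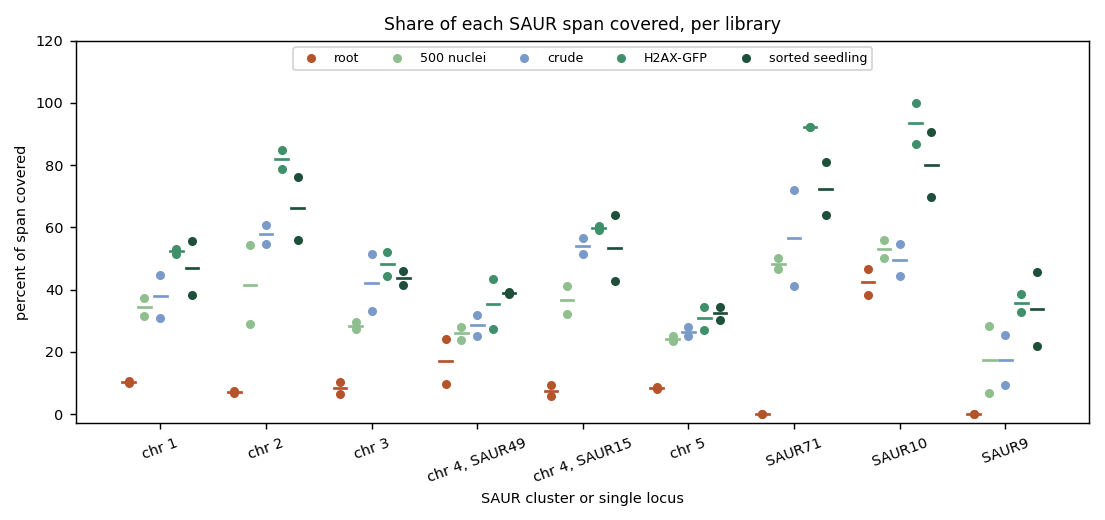
Percent of each cluster span or single locus, with 1000 bp on each side, covered by called regions, by group; points are libraries and lines are group means (n = 2). Root points lie below all seedling points in each column except the SAUR49 cluster, where root replicate 1 covered 24.3%, against 23.8% to 43.4% in seedling libraries, and SAUR10, where root replicate 2 covered 46.7%, against 44.3% in the lowest seedling library.

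Over the 6 clusters and 3 loci the called regions joined into 30 regions. Of these, 11 were called in neither root library, 9 of the 11 in all 8 seedling libraries, 13 in all 10 libraries, and none in root libraries alone. The loci were chosen with these values known, and no share over joined regions of the whole genome stands beside these counts. Bases covered in all 8 seedling libraries and in neither root library, taken in runs of at least 100 bp, numbered 530552 over the genome in 1551 runs. The spans of the SAUR clusters and loci held 33 of these runs and 15939 of the bases, which is 3.004% of all such bases. They made up 14.6% of the spans, against 0.445% of the genome. The widest, chr1:10306349-10307367, is 1019 bp wide, lies on SAUR64 and SAUR65 and ranked 29 by width. Next in width at the SAUR genes were chr1:10303257-10304225 on SAUR62, with 969 bp, chr1:10305009-10305813 on SAUR63 and SAUR64, with 805 bp, and chr4:18125403-18126204 on SAUR14 and SAUR15, with 802 bp. Such runs overlapped 23 of the 36 genes, and no gene lay wholly inside one.

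The other 43 SAUR genes, of which 41 passed the filter, averaged 612.5 ± 236.8 covered bases in root libraries (SD, n = 2), against 622.0 ± 211.5 in seedling libraries (SD, n = 8, over the 4 seedling groups). Their median difference between root and sorted seedling libraries was -113.5 covered bases and none was called. Against the 4 seedling groups 2 were called higher (0.603% of tested genes). SAUR79 had 1792 and 1439 covered bases in root libraries, against 379 to 1314 in seedling libraries, and SAUR30 had 1475 and 951, against 0 to 604. SAUR46, with the largest difference in the lower direction, had 0 and 0 covered bases in root libraries, against 447 to 1078 in seedling libraries. Since the 36 genes were chosen by this contrast, their distance from the other SAUR genes was not tested.

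**Figure D4:**
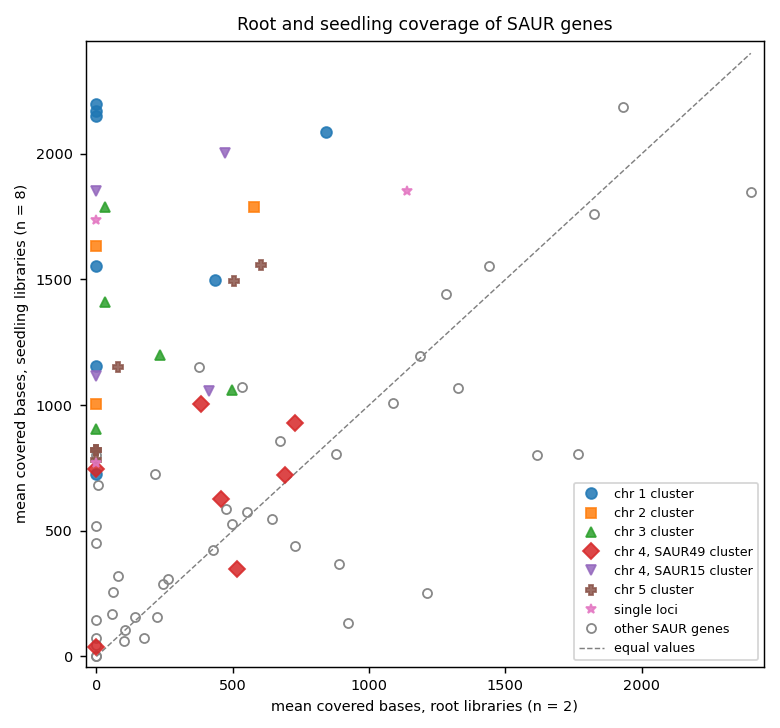
Mean covered bases of each SAUR gene in the root libraries (horizontal axis, n = 2) and in the seedling libraries (vertical axis, n = 8); filled symbols are the 36 genes by cluster, open circles the other 43 SAUR genes, and the dashed line marks equal values. Filled symbols lie above the line except for SAUR5, and 18 of them stand at 0 on the horizontal axis, while open circles lie on both sides.

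Genes that act upstream and downstream of SAUR proteins gave 1 call in root against sorted seedling libraries and 3 against the 4 seedling groups, all lower (0.578% and 1.41% of tested genes). None of 6 auxin receptor genes was called. AFB5 had the largest difference of these against sorted seedlings, with 1870 and 1195 covered bases in root libraries, against 2245 and 2137 in sorted seedling libraries. All 11 listed Aux/IAA repressor genes (IAA1 to IAA7, IAA14, IAA17, IAA19, IAA29) had a lower mean in root than in sorted seedling libraries (69.5% of tested genes). Their median difference was -580.5 covered bases, against -83.0 over all tested genes, and none was called. From crude nuclei 9 of the 11 were lower than from sorted seedling nuclei, at a median of -757.0 (-138.0 over all tested genes). From 500 nuclei 10 were lower, at a median of -453.0 (-211.5), and from H2AX-GFP nuclei 8, at -148.5 (23.5). Against the 4 seedling groups 9 of the 11 had a lower root mean, at a median difference of -317.8 (-26.3 over all tested genes). IAA5 was called lower there, with 35 and 0 covered bases in root libraries, against 440 to 731 in seedling libraries. IAA7 had the list's largest difference without a call, with 536 and 368 covered bases in root libraries, against 2400 and 2321 in sorted seedling libraries. Of 9 ARF, PIF and BZR1 genes, PIF7, a transcription factor of the shade response, was called lower in both root comparisons, with 19 and 0 covered bases in root libraries, against 919 and 1200 in sorted seedling libraries. BZR1 itself had 1200 and 1200 covered bases in root libraries, against 1200 and 1200 in sorted seedling libraries.

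Of 11 PP2C.D phosphatase and proton pump genes, PP2C.D1 was called lower against the 4 seedling groups, with 0 and 0 covered bases in root libraries, against 421 to 1114 in seedling libraries. The proton pump gene AHA1 had 794 and 629 covered bases in root libraries, against 1283 and 2400 in sorted seedling libraries, and was not called. AHA2 had 1909 and 1761 in root libraries, against 1759 and 1709.

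None of the 36 was called in any comparison among seedling preparations. From 500 nuclei the 36 genes averaged 1009.5 ± 39.7 covered bases, against 1402.3 ± 126.5 from sorted seedling nuclei (SD, n = 2 each). All 36 had a lower mean from 500 nuclei, as did 95.6% of tested genes, and in 24 both 500-nuclei values lay below both sorted seedling values (55.3% of tested genes). The median difference was -403.8 covered bases, against -211.5 over all tested genes, and the 500-nuclei libraries covered 15.77 and 13.87 Mb in all. An unadjusted limma p under 0.05 was met by 9 of the 36 and by 7.44% of tested genes. SAUR12 had the largest difference, -920.5 ± 174.9 covered bases (SE), and both its 500-nuclei values lay below both sorted seedling values. Limma called 0 of the 36 and 0% of tested genes. The mean difference over the 36, -392.8 covered bases, was 71.5 after division by the covered length of each library.

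From crude nuclei the 36 genes averaged 1188.8 ± 125.9 covered bases, against 1402.3 ± 126.5 from sorted seedling nuclei (SD, n = 2 each). Of the 36, 29 had a lower and 7 a higher mean, while 72.5% of tested genes had a lower one, and in 7 both crude values lay below both sorted seedling values (32.4% of tested genes). The median difference was -201.8 covered bases, against -138.0 over all tested genes. At SAUR10 the difference was -657.0 ± 191.4 covered bases (SE). In 3 of the 36 the unadjusted limma p was under 0.05 (9.48% of tested genes), and limma called 0 of them and 0% of tested genes. In the SAUR15 cluster 3 of 4 genes had a higher mean from crude nuclei, the exception being SAUR15 itself at -220.0 ± 170.4 covered bases (SE). The mean difference over the 36, -213.5 covered bases, was 194.1 after division by covered length and 31.7 after quantile normalization.

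From H2AX-GFP nuclei the 36 genes averaged 1482.7 ± 86.0 covered bases, against 1402.3 ± 126.5 from sorted seedling nuclei (SD, n = 2 each). Of the 36, 24 had a higher and 12 a lower mean, while 40% of tested genes had a lower one, and in 8 both H2AX-GFP values lay above both sorted seedling values (13.4% of tested genes). The median difference was 109.0 covered bases, against 23.5 over all tested genes. SAUR12 had the largest difference, 578.0 ± 174.9 covered bases (SE). It was the 1 gene of the 36 with an unadjusted limma p under 0.05 (3.18% of tested genes), and limma called 0 of the 36 and 0% of tested genes. In the chromosome 5 cluster 5 of 6 genes had a lower mean in H2AX-GFP libraries, with differences between -309.0 and 109.5 covered bases. The mean difference over the 36, 80.3 covered bases, was -72.1 after division by covered length and -9.2 without sorted seedling replicate 1.

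**Figure D5:**
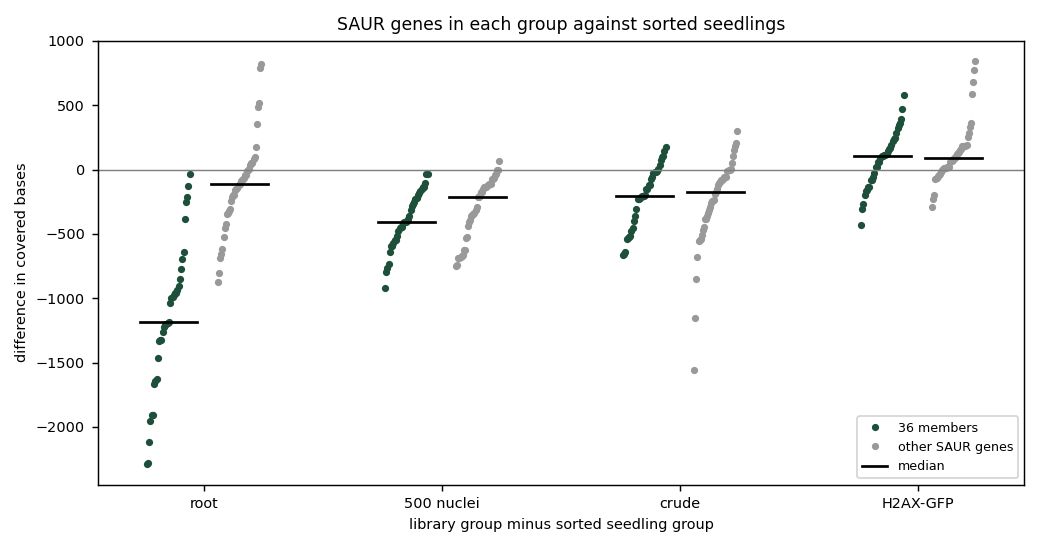
Difference in covered bases of each of the 36 SAUR genes (dark points) and of the other SAUR genes (grey points) between each of 4 library groups and the sorted seedling group, with medians as black lines. The root medians are -1188.5 for the 36 and -113.5 for the others, and the 3 seedling preparations lie nearer to 0 with medians of -403.8, -201.8 and 109.0 for the 36.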

How the data were processed

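ATAC-seq regions of 10 libraries in 5 groups of 2 were used. The score per region is the authors' deposited value. The peak caller and the meaning of the score were not stated in the sources used here. The score ranked regions of 1 library at a time. Positions refer to TAIR10, per the submitters' processing notes. Gene positions came from a RefSeq table of TAIR10.1, whose nuclear chromosomes were taken to match, so only positions of regions are printed. The table gave no strand or exons. The genomic DNA, maize and read-subset samples were not analysed here. AT5G01830 was left out of the SAUR genes because it carries the name of AT5G18030 (SAUR21), and AT1G29510 is called SAUR67 here, since the table gives SAUR68 for it and for AT1G29490.

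Covered bases were counted from 1000 bp outside to 200 bp inside both gene ends. Genes with a covered base in at least 2 libraries, 23893 in number, entered limma 3.58.1 (R 4.3.3) over all 10 libraries, with eBayes set to trend and robust and a Benjamini-Hochberg adjusted p under 0.05 as a call, in 5 comparisons. The fit was tried on simulated data in which chosen genes had no covered base in either root library. Partial differences and neighbours that share windows were not simulated. Regions were joined where they touched and counted as called with at least 1 covered base. Python 3.11.15, numpy 2.4.6, pandas 2.3.3 and matplotlib 3.10.9 were used.

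The members and gene lists were chosen with earlier results of these data known. Values in every library are given for the 3 separate loci and for the genes of highest and lowest mean in each cluster. Genes of pathway lists and other SAUR genes are named where called in a root comparison or with the largest difference, and further ones (BZR1, AHA2, RBCS1A, PLT1, SCR, SHR) were picked after their values were seen. Alternatives were other windows, scalings, filters and fits, and the omission of single libraries. The motif search in promoters was not run, as no sequence was used here.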

Additional observations from a re-analysis of the deposited data

How the results depend on the processing

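The count of SAUR genes called lower in root than in sorted seedling libraries, 10, became 18 with 500 bp windows, 5 with 2000 bp windows, 1 with the gene span alone, 0 after division by covered length, 16 without limma's trend and robust options, and 0 with the 2 groups alone in the fit; leaving out a library gave 0 to 13. Against the 4 seedling groups the 19 became 4 with the gene span alone, and leaving out a library gave 0 to 22. Over all genes, the 163 calls against sorted seedlings (138 lower, 25 higher) became 311 with 500 bp windows, 47 with 2000 bp windows, 46 (22 lower, 24 higher) after division by covered length, 482 (289 lower, 193 higher) with the better-scoring 50% of regions, 280 (190 lower, 90 higher) with equal numbers of regions, 279 (160 lower, 119 higher) after quantile normalization, 277 without the filter, 254 without trend and robust and 0 with the 2 groups alone; leaving out a library gave 0 to 205. The 481 against the 4 groups (337 lower, 144 higher) became 831 (428 lower, 403 higher) after division by covered length, 770 (427 lower, 343 higher) with the better-scoring 50%, 730 (398 lower, 332 higher) with equal numbers of regions and 1075 (538 lower, 537 higher) after quantile normalization; leaving out a library gave 0 to 520. Libraries of the same replicate number did not deviate together throughout: correlations of their deviations from group means ran from -0.22 to 0.514 and passed 0.1 in 4 of 10 pairs of groups. The highest were 0.514 for 500 nuclei with sorted seedlings, 0.427 for 500 nuclei with H2AX-GFP, and 0.392 for H2AX-GFP with sorted seedlings. The numbers were not taken as pairs in the main fit, and whether these groups share a replicate effect was not tested. With the replicate block, 5 SAUR genes and 78 of all genes were called against sorted seedlings, and 22 and 430 against the 4 groups. The mean root minus sorted seedling difference over the SAUR genes, -1162.6 covered bases, was -778.5, -1763.2 and -345.8 with 500 bp windows, 2000 bp windows and the gene span, -998.7 after division by covered length, -1023.6 with the better-scoring 50% and -989.2 after quantile normalization. Against the 4 groups, -1031.1 became -705.5, -1544.6 and -326.1 with those 3 windows. For 500 nuclei, -392.8 became -208.7, -637.6 and -137.6 with those windows, 71.5 after division by covered length and -73.7 after quantile normalization. For crude nuclei, -213.5 became -128.6 with 500 bp windows, -357.8 with 2000 bp windows, -38.1 with the gene span, 194.1 after division by covered length and 31.7 after quantile normalization; it was -124.5 without crude replicate 2, -124.1 without sorted seedling replicate 2 and down to -303.0 in the other omissions. For H2AX-GFP, 80.3 became 44.9 with 500 bp windows, 121.0 with 2000 bp windows, -72.1 after division by covered length, 24.5 after quantile normalization, 197.0 with the better-scoring 50%, -9.2 without sorted seedling replicate 1, 19.5 without H2AX-GFP replicate 1, 141.1 without H2AX-GFP replicate 2 and 169.8 without sorted seedling replicate 2. No SAUR gene was called among seedling preparations under any alternative run, while all genes called went from 0 to 13 for 500 nuclei and 22 for crude nuclei without the filter, 38 for crude nuclei with the better-scoring 50%, and for H2AX-GFP to 19 with the gene span, 27 with the better-scoring 50%, 2 with equal numbers of regions, 32 without the filter and 184 without H2AX-GFP replicate 1. The 18 SAUR genes with no covered base in roots became 8 with 2000 bp windows (chosen after seeing the data), and the 11 joined regions absent from roots became 24 where 50% of a region had to be covered. Among single SAUR genes, the root mean was not below the sorted seedling mean for SAUR5 with the gene span, and for SAUR2 and SAUR3 after quantile normalization. The same held for SAUR4 without root replicate 2, and for SAUR4 and SAUR5 without sorted seedling replicate 1. The cause of these shifts was not tested. Groups of 2, unknown depth, and windows shared between neighbours limit what single genes show.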
